A study of Capra hircus with 10 samples.

Results

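The miRNA described here are those of the miR-33, miR-103/miR-107 and miR-378 families, known as small RNA whose hairpins lie inside genes of lipid and energy metabolism. The short form miR-378d is the exception here, since the tables count it on a predicted precursor elsewhere, described below. They were taken by name from the miRNA tables of goat mammary gland: miR-33a, miR-33b, miR-103, miR-107 and miR-378 with any letter, each with its 5p and 3p arm where listed. This gave 11 of the 1804 miRNA listed, with 4 in the miR-33 family, 4 in the miR-103/miR-107 family and 3 in the miR-378 family. The rule itself uses names alone and no measured value.

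The samples were mammary glands of 10 goats of the Alpine breed in peak lactation (48 ± 2 days post-partum), with 1 small RNA library per goat made from about 150 mg of tissue. All goats received hay and concentrate in a 35:65 forage to concentrate ratio for 2 weeks. During the last 48 h, 4 goats ate this diet at will (Control, L01, L04, L06 and L10) and 6 received water but no food (FD, namely L02, L03 and L05 together with L07, L08 and L09). Libraries held from 4495512 counts (L06) to 9842009 counts (L08) on miRNA. The tissue is a whole gland and not a sorted cell type, so that fewer cells of a type and less of a miRNA per cell cannot be told apart in these values.

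A miRNA guides a silencing complex to messenger RNA, mostly through its seed, bases 2 to 8, and lowers the amount or the translation of the target. Vertebrate miR-33 lies in introns of the sterol regulatory element binding factor genes, whose proteins switch on cholesterol and fatty acid synthesis, and miR-33 is known to repress ABCA1, the pump that exports cholesterol from cells. The miR-103/miR-107 family lies in the pantothenate kinase genes, which encode the first enzyme of coenzyme A synthesis, and is known for effects on insulin signalling. The miR-378 hairpin lies in PPARGC1B, which encodes the coactivator PGC-1β, a regulator of mitochondrial and lipid metabolism genes.

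In the goat gene table of RefSeq (assembly ARS1.2, used for names and neighbours only), each of the 5 hairpins was spanned by 1 protein-coding gene. SREBF2 held MIR33A, SREBF1 held MIR33B, PANK2 held MIR103, PANK1 held MIR107 and PPARGC1B held MIR378. The relatives PANK3, PANK4 and PPARGC1A held 0 miRNA genes in this table.

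The sequences of the 6 members that carry the shared seeds are shown first, because members of a family differ by only a few bases or by their length, and this bears on how reads were assigned to them. They are the mature sequences of the deposited tables, 5′ to 3′, with the seed (bases 2 to 8) in capitals.
miR-33a-5p: gTGCATTGtagttgcattgc
miR-33b-5p: gTGCATTGctgttgcattg
miR-103-3p: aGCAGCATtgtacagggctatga
miR-107-3p: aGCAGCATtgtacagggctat
miR-378-3p: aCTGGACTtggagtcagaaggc
miR-378d: aCTGGACTtggagtcaga

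Positions below are counted from 1 at the 5′ end of the first-named member. Compared with miR-33a-5p, miR-33b-5p carried T9C and A10T, both just outside the seed, over the 19 bases that they share. The miR-107-3p sequence of these tables (21 bases) was identical to the first 21 bases of miR-103-3p (23 bases). The same held for miR-378d (18 bases), a name taken from orangutan, which was the start of miR-378-3p (22 bases). A read of 21 bases or fewer from this sequence fits both miR-103-3p and miR-107-3p, and how such reads were divided is not given in the sources used here. The split of counts within these pairs is therefore uncertain, as opposed to the split between miR-33a-5p and miR-33b-5p, whose sequences differ.

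The opposite arms of the hairpins have seeds of their own and are shown because they allow a hairpin's arms to be compared in the same library.
miR-33a-3p: cAATGTTTccacagtgcatca
miR-33b-3p: cAGTGCCTcggcagtgcagcc
miR-378-5p: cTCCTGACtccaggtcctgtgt
miR-103-5p: aGCTTCTTtacagtgctgccttgtagcatt
miR-107-5p: aGCTTCTTtacagtgttgccttg

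The abundance of the 11 miRNA ranged widely. Normalized counts, which are counts divided by a size factor per library, were not divided by length because a read covers a whole mature miRNA. On this scale miR-103-3p ranked 17th of the 1804 miRNA, with a mean of 55069 over the 10 libraries and 0.832% of all counts. It was followed by miR-378-3p at rank 21 with a mean of 46938 and 0.695% of all counts, and by miR-107-3p at rank 66 with a mean of 5433. As a scale, the 5 most abundant miRNA had mean normalized counts from 317431 for miR-26a-5p, through miR-30a-5p, miR-143-3p and miR-10b-5p, to 1201928 for miR-148a-3p.

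The miR-33 family was far less abundant. Its leading arm, miR-33b-5p, ranked 231st with a mean normalized count of 180, and miR-33a-5p ranked 283rd with 103.2. The minor arms were lower still, with 40.4 for miR-33a-3p and 7.89 for miR-33b-3p. Between these and the abundant members lay miR-378d (383, rank 176) and miR-378-5p (371, rank 179).

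The order of neighbouring members was mostly the same in every goat. Thus miR-33b-5p exceeded miR-33a-5p in 10 of 10 libraries, miR-378-3p exceeded miR-107-3p in 10 of 10, and miR-103-3p exceeded miR-378-3p in 9 of 10, with L01 as the exception. The order was not stable for miR-378d and miR-378-5p, since miR-378d was higher in 5 of 10 libraries, and these 2 members did not differ beyond their spread. Together the 11 miRNA took from 1.13% of all counts (L05) to 2.11% (L01).

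A diet comparison was made for the members whose highest normalized count was above 28. This left 8 of 11, each of them above 28 in all 10 libraries. The 3 members not tested were miR-33b-3p with 3 to 11 counts per library, miR-103-5p with 3 to 6 counts, and miR-107-5p. The last had 3 counts in L05, 1 in L07, 2 in L08 and 0 in the other 7 libraries. A count of 0 allows a share of up to 6.67e-05% of the counts of L06, the library with the smallest total (3 counts of the total, counting error only).

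**Figure D1:**
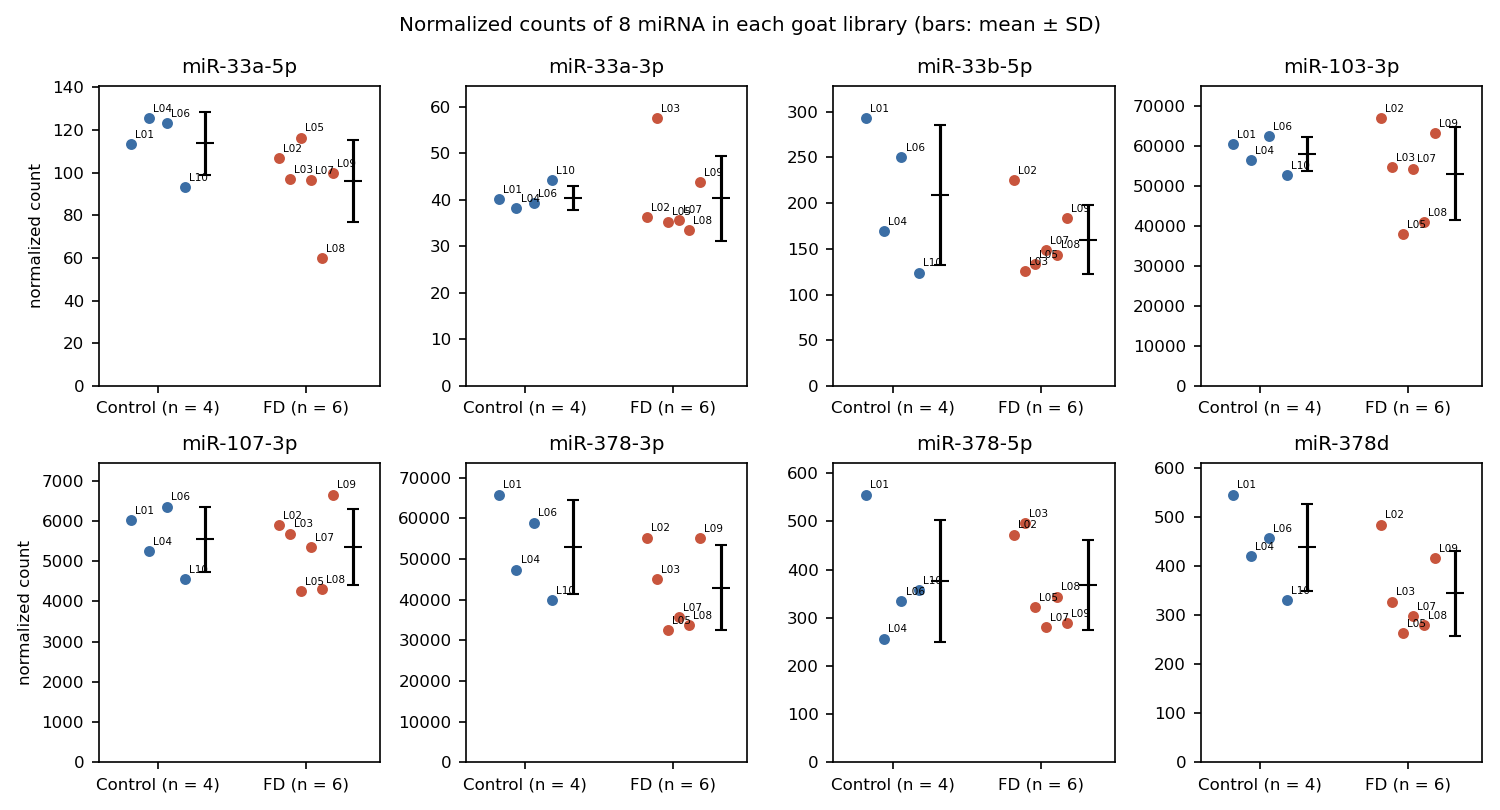
Normalized counts (y axis, linear from 0, no unit) of the 8 tested miRNA, 1 point per library, with Control (n = 4, blue) and FD (n = 6, red) side by side and black bars for the mean ± SD. The diets overlapped for all 8 miRNA, and L05 and L08 were the 2 lowest libraries for miR-103-3p, miR-107-3p, miR-378-3p and miR-378d.

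None of the 8 miRNA passed the diet comparison in the quasi-likelihood test of edgeR (two-sided, Benjamini-Hochberg adjustment over 490 miRNA, threshold 0.1). The background is the same at this threshold, with 0% of all miRNA tested being called. By other tools on the same miRNA, limma-voom called 0 and DESeq2 called 24 of the 490, with 0 members among them. At an unadjusted p under 0.05, 0 of the 8 members passed, as against 15.7% of all 490 miRNA (77 miRNA, 37 higher and 40 lower in FD). The members leaned one way, since 8 of 8 had a log2 fold change below 0, that is a lower level in FD goats, as against 50% of all miRNA tested. The count of 8 rests in part on single libraries and on the processing. It was 5 of 8 without L05, 6 of 8 without L07 and 7 of 8 without L01 or without L06. With library totals as the scaling it was also 7 of 8. Without a filter on low counts, 9 of the 11 members were below 0, and miR-33a-3p was at 0.0015. The median log2 fold change was -0.21 over the 8 members and 0.00 over all 490 (-0.0004). The diets did not overlap for 0 of the 8 members, while this happened for 2.24% of all miRNA. Some members share a hairpin or a seed, and some may share reads, so that these 8 directions are not independent of each other.

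In the miR-378 family, miR-378-3p had normalized counts of 65811 in L01, 47391 in L04, 58913 in L06 and 39897 in L10, the Control goats. In FD goats the values ran from 32509 in L05 to 55237 in L02, with a median of 40406. Of the FD goats, 3 lay below every Control goat and the other 3 within the Control range. The Control mean was 53003 ± 11579 (SD, n = 4) and the FD mean 42895 ± 10466 (SD, n = 6), a log2 fold change of -0.32 (SE 0.19, 95% confidence interval -0.73 to 0.09, adjusted p = 0.429 by edgeR). The interval thus reached from 0.601 to 1.06 times the Control level.

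The short form miR-378d had 546, 421, 457 and 331 normalized counts in the same Control goats, in the same order, and from 264 to 485 (median 313) in FD. Here 4 of 6 FD goats lay below every Control goat, while L02 and L09 stayed within the Control range. The log2 fold change was -0.36 (SE 0.21, interval -0.81 to 0.09, adjusted p = 0.421 by edgeR), the smallest adjusted p among the members.

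The opposite arm of the hairpin, miR-378-5p, ranged from 257 (L04) to 556 (L01) normalized counts in Control and from 280 to 496 (median 333.2) in FD. All FD goats lay within the Control range. Its log2 fold change was -0.05 (SE 0.24, interval -0.56 to 0.47, adjusted p = 0.921 by edgeR).

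In the miR-33 family, miR-33b-5p, the arm from SREBF1, showed the widest spread between Control goats of the 8 tested members, with 293, 170, 251 and 124 normalized counts in L01, L04, L06 and L10. In FD goats its lowest value was 126, its median 146 and its highest 225, and all of them lay within the Control range. The log2 fold change was -0.40 (SE 0.25, interval -0.94 to 0.15, adjusted p = 0.447 by edgeR), and leaving out 1 library moved it to between -0.21 (without L01) and -0.62 (without L10). The coefficient of variation between Control goats was 36.6%, as against 7.60% from counting alone.

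For miR-33a-5p, the arm from SREBF2, Control goats held 113 (L01), 126 (L04), 123 (L06) and 93.1 (L10) normalized counts. The FD goats held from 59.8 (L08) to 117 (L05), median 98.4. Only L08 lay below every Control goat. The log2 fold change was -0.27 (SE 0.18, interval -0.67 to 0.13, adjusted p = 0.457 by edgeR). The minor arm miR-33a-3p had a mean of 40.4 normalized counts in both diets (SD 2.60 in Control, 9.14 in FD), with a log2 fold change of -0.02 (SE 0.20, adjusted p = 0.955 by edgeR). Although the means were equal, 4 FD goats lay just below every Control goat and 1 (L03, 57.6) above all of them.

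In the miR-103/miR-107 family, miR-103-3p had normalized counts of 60531 (L01), 56510 (L04), 62449 (L06) and 52807 (L10) in Control goats, a coefficient of variation of 7.40%. The FD goats were more spread out, from 37951 in L05 to 67006 in L02 (median 54576, coefficient of variation 21.9%). Of the FD goats, 2 lay below and 2 above every Control goat. The log2 fold change was -0.15 (SE 0.16, interval -0.49 to 0.19, adjusted p = 0.6249 by edgeR). Without L05 it was -0.05 and without L02 -0.24.

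The shorter miR-107-3p had 6018, 5253, 6359 and 4558 normalized counts in these Control goats and from 4267 (L05) to 6656 (L09), median 5515, in FD. The FD goats lay on both sides of the Control range, 2 below it and 1 above it. Its log2 fold change was -0.07 (SE 0.15, interval -0.40 to 0.26, adjusted p = 0.842 by edgeR). For this miRNA the interval excludes a fall below 0.757 times the Control level and a rise above 1.20 times.

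**Figure D2:**
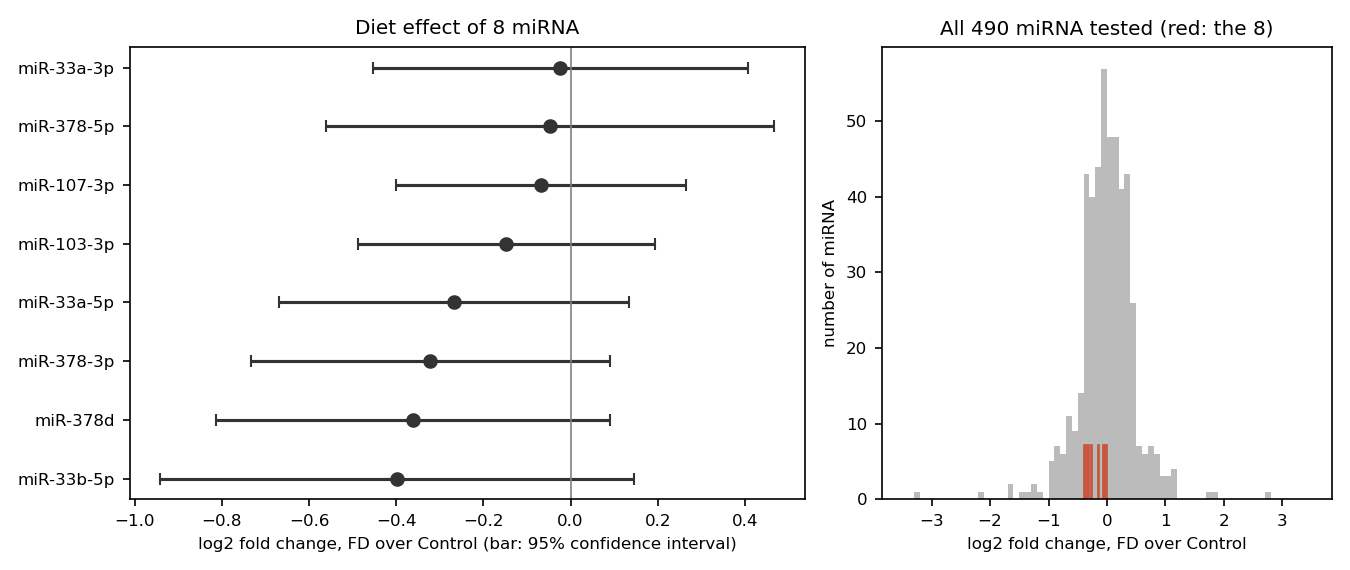
Left, log2 fold change (FD over Control, x axis) of the 8 tested miRNA with 95% confidence intervals from the edgeR fit, where every interval crosses 0. Right, number of miRNA (y axis) by log2 fold change for all 490 tested, with red ticks for the 8, which lie between -0.40 and -0.02.

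The members that share a seed were also added up. This sets aside how reads were split within a pair only if each read was counted once, which the sources used here do not give. Since miR-378d stood at 0.816 percent of miR-378-3p and miR-107-3p at 9.93 percent of miR-103-3p, these sums largely repeat the more abundant member. The log2 fold change was -0.32 for miR-378-3p with miR-378d (adjusted p = 0.423 by edgeR), -0.14 for miR-103-3p with miR-107-3p (adjusted p = 0.634) and -0.35 for miR-33a-5p with miR-33b-5p (adjusted p = 0.419). As a percent of all counts of a library, the miR-378 family took 0.828 ± 0.219 in Control (SD, n = 4) against 0.672 ± 0.156 in FD (SD, n = 6). The miR-103/miR-107 family took 0.974 ± 0.132 and 0.900 ± 0.181, and the miR-33 family 0.00574 ± 0.00157 and 0.00467 ± 0.000626. The diets overlapped in all 3 families.

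Ratios within a library need no scaling between libraries. Of 8 ratios between related members or arms, 5 had at least 10 counts on both sides in every library and were tested (two-sided exact permutation test over the 210 ways of assigning the libraries to the diets, adjusted over 5 ratios, smallest p allowed 0.00952). None of the 5 passed it. The PANK-hosted pair was at 10.6 ± 0.794 counts of miR-103-3p per count of miR-107-3p in Control (SD, n = 4) and 9.85 ± 0.848 in FD (SD, n = 6), with 4 of 6 FD goats below every Control goat (exact p = 0.21, adjusted p = 0.417). The SREBF-hosted pair was at 0.593 ± 0.182 counts of miR-33a-5p per count of miR-33b-5p in Control and 0.622 ± 0.178 in FD (exact p = 0.771, adjusted p = 0.771).

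The latter ratio was below 1 in all 10 goats, from 0.387 in L01 to 0.876 in L05, so the SREBF1-hosted member was the more abundant of the pair in every library. The arm from the 3p side dominated in the miR-378 hairpin, with 148 ± 37.9 counts of miR-378-3p per count of miR-378-5p in Control and 121 ± 36.4 in FD (exact p = 0.257, adjusted p = 0.417). In the miR-33a hairpin the 5p arm led by a smaller margin, 2.84 ± 0.524 to 1 in Control and 2.45 ± 0.646 to 1 in FD (exact p = 0.3333, adjusted p = 0.417). Between families, miR-378-3p stood at 0.906 ± 0.143 of miR-103-3p in Control and 0.809 ± 0.0775 in FD (exact p = 0.238, adjusted p = 0.417). The 3 other ratios, which involve miR-33b-3p, miR-103-5p and miR-107-5p, rest on at most 11 counts on the minor side and were not tested. Single libraries moved the differences between diets. On the log2 scale, FD minus Control, miR-378-3p over miR-103-3p was at -0.16 with all libraries and -0.06 without L01, and miR-103-3p over miR-107-3p at -0.10 and, without L10, at -0.05.

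Across the 10 goats, several members rose and fell together. The 2 PANK-hosted members, miR-103-3p and miR-107-3p, correlated at r = 0.885 (rho = 0.891, n = 10, permutation p = 0.00037 and 0.00112, adjusted over 6 pairs 0.00111 and 0.00462). Members with unlike sequences and hosts also correlated, with r = 0.836 for miR-103-3p and miR-378-3p (rho = 0.879, permutation p = 0.00181 and 0.00154, adjusted p = 0.00362 and 0.00462) and r = 0.891 for miR-33b-5p and miR-378-3p (rho = 0.818, permutation p = 0.00033 and 0.00575, adjusted p = 0.00111 and 0.0115). As deviations from the mean of each diet, the 3 correlations were 0.893, 0.830 and 0.865 (permutation, adjusted p from 0.00282 to 0.0035).

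Leaving out the 2 libraries farthest from the median of the first-named miRNA lowered them to 0.770 and 0.762 for the pairs with miR-103-3p (without L05 and L08) and to 0.765 for miR-33b-5p and miR-378-3p (without L01 and L06). Each then had a permutation p of 0.0619 after adjustment with 8 libraries left and a narrower range of values. With any single library left out, the 3 pairs kept r between 0.803 and 0.925 and passed the test in 10 of 10 cases (permutation, adjusted p up to 0.0137). The values of a library share its size factor, and the pair miR-103-3p and miR-107-3p shares sequence. Correlations of this size were not particular to the members. On the log2 scale, miR-30b-3p reached 0.910 with miR-103-3p, and miR-369-3p reached 0.896 with miR-378-3p. How many of all pairs of miRNA correlate this closely was not tested.

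The other 3 pairs did not pass the test. The SREBF-hosted miR-33a-5p and miR-33b-5p, which share a seed but not a host, had r = 0.455 (rho = 0.539, permutation p = 0.19 and 0.113, adjusted p = 0.228 and 0.169), and 0.628 without L04 and L08. Arms of the same hairpin were among them. They gave r = 0.488 for miR-378-3p and miR-378-5p (rho = 0.345, permutation p = 0.153 and 0.332, adjusted p = 0.228 and 0.398) and r = 0.0127 for miR-33a-5p and miR-33a-3p (rho = -0.0182, permutation p = 0.966 and 0.973, adjusted p = 0.966 and 0.973). Without the 2 farthest libraries these were 0.150 (without L01 and L05) and -0.463 (without L04 and L08). Counting error was 14.7% to 16.8% of the level for miR-33a-3p, as against 0.406% to 0.472% for miR-103-3p and miR-378-3p.

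**Figure D3:**
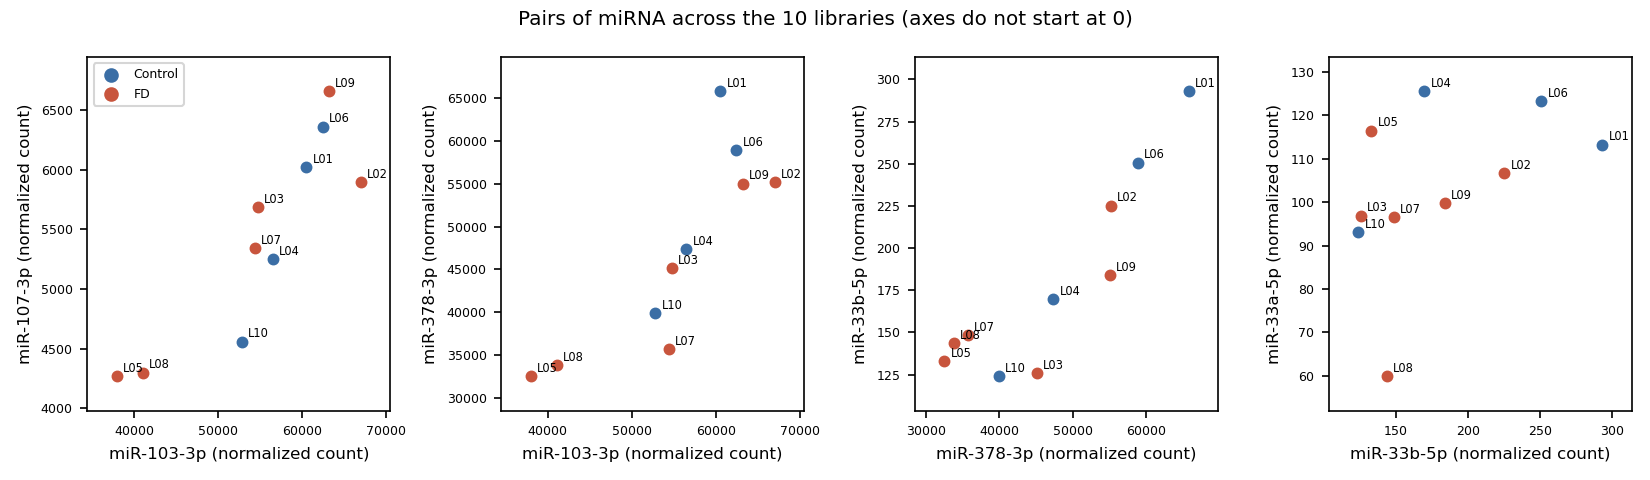
Normalized counts of 4 pairs of miRNA, 1 point per library, Control in blue and FD in red, on linear axes that do not start at 0. The first 3 pairs line up (r = 0.885, 0.836 and 0.891) with points of both diets along the same line, while miR-33a-5p and miR-33b-5p scatter (r = 0.455). Counting error adds to this scatter, at 10.1% of the level for miR-33a-5p and 7.60% for miR-33b-5p in Control.

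Near-identical sequences were frequent for miR-378 among the predicted miRNA. Besides miR-378d, 7 predicted miRNA matched miR-378-3p with at most 3 substitutions. The most abundant of these are shown, with their own bases 2 to 8 in capitals, because of this likeness to miR-378-3p.
chr21_28588-5p: cTGGACTTggggtcagaaggct
chr13_19333-5p: cTGAACTTggagtcagaaggc
chr9_13514-5p: aTTGGACTtggagtcggaaa

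Relative to miR-378-3p, chr21_28588-5p started 1 base later and carried A12G, and chr13_19333-5p started 1 base later and carried G5A. The third, chr9_13514-5p, started at the same base and carried C2T, A16G and G20A. Of all miRNA outside the family, chr11_16233-3p alone had the seed of miR-378-3p, with 23 counts in 10 libraries. For miR-33a-5p, miR-33b-5p, miR-103-3p and miR-107-3p no miRNA other than their own partner shared the seed.

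As a share of the miR-378-3p count, miR-378d and chr21_28588-5p varied little between libraries. For miR-378d the share was 0.816 ± 0.0507 percent (SD, n = 10), from 0.727 in L03 to 0.888 in L04. The coefficient of variation of this share was 6.22%, close to the 5.10% from counting error, although the normalized count of miR-378d itself varied by 25.1%. The most abundant predicted sequence, chr21_28588-5p, had a share of 1.77 ± 0.124 percent with a coefficient of variation of 6.99% (counting 3.46%), and chr13_19333-5p of 0.0800 ± 0.0107 percent with 13.3% (counting 16.4%). The share of chr9_13514-5p varied more, by 31.4% (counting 22.5%), from 0.0253 percent in L05 to 0.0630 percent in L01. In the PANK pair, miR-107-3p stood at 9.93 ± 0.819 percent of miR-103-3p, with a coefficient of variation of 8.25% against 1.34% from counting.

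**Figure D4:**
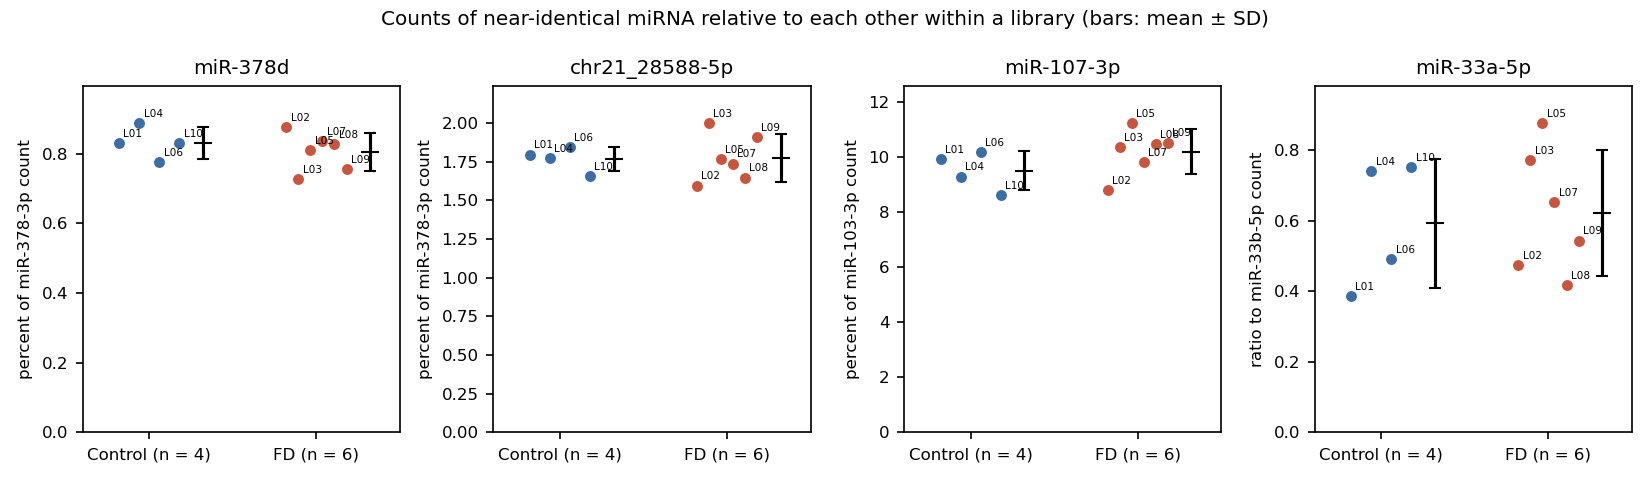
Counts of a miRNA relative to a near-identical one in the same library (y axes from 0), 1 point per library, with black bars for the mean ± SD of Control (n = 4) and FD (n = 6). The shares of miR-378d and chr21_28588-5p stay near 0.816 and 1.77 percent of miR-378-3p in both diets, while the ratio of miR-33a-5p to miR-33b-5p runs from 0.387 to 0.876.

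The positions of the predicted precursors are known on CHIR_1.0. The miR-378d count was placed on the precursor at chrX:72719596-72719636 (plus strand), and a second predicted precursor at chr19:38327380-38327420 (minus strand) held the same 18 bases. Both are printed with the mature part in capitals, to show that the mature parts are identical while the rest differs.
chrX_39540: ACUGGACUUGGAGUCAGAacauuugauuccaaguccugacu
chr19_27111: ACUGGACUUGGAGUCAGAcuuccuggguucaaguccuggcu

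These precursors are 41 bases long, as against 110 bases for the RefSeq hairpin MIR378. Their miRDeep2 scores were 4.8 and 5.3, with 1754 and 1009 reads over all libraries, and 0 reads fell on the opposite (star) arm of either. The precursor of chr21_28588-5p at chr21:28838639-28838700 (plus strand, score 5.1) had 10104 reads, again with 0 star reads, and that of chr13_19333-5p at chr13:59668171-59668248 (minus strand) had a score of 0.0. The counts used elsewhere here are another measure than these reads of the prediction. By counts, chr21_28588-5p had 8379 and miR-378d 3849 over the 10 libraries, which do not match the reads above. Also by counts, the miR-378 hairpin had 3784 of its minor arm miR-378-5p beside 472150 of miR-378-3p. What gene, if any, lies at these places on CHIR_1.0 was not analysed here.

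The miRNA whose levels were most like those of the members were named by the highest correlation of log2(normalized count + 1) over the 10 libraries, as a description. For miR-378-3p they were chr21_28588-5p (r = 0.971), miR-369-3p (0.896) and chr9_13514-5p (0.865). For miR-33b-5p they were miR-380-3p (0.904), miR-136-3p (0.875) and miR-409-3p (0.874). The predicted chr21_28588-5p also came first for miR-107-3p (0.904), ahead of miR-136-3p (0.874) and miR-411a-3p (0.811). For miR-103-3p they were miR-30b-3p (0.910), miR-582-5p (0.817) and miR-429 (0.817), and for miR-33a-5p miR-1277-5p (0.840), chr26_33637-5p (0.828) and miR-148a-5p (0.819). The libraries share a scale, and none of these neighbours passed the diet test of edgeR (adjusted p from 0.195 for miR-409-3p to 0.847 for miR-582-5p). That test called 0 of all 490 miRNA, while DESeq2 called 24 of them. Which neighbours were among the DESeq2 calls is not given here. The study itself lists miR-409-3p as lower in FD goats.

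For comparison, 34 other miRNA names, known in cholesterol or fat metabolism or in mammary lipid synthesis, were read in the same fit. Both arms were taken for each name, so that arms of the same hairpin are counted apart. Of 51 arms tested, 37 had a log2 fold change above 0 and 14 below, with a median of 0.18. At an unadjusted p under 0.05, 10 were higher and 1 lower, as against 37 higher and 40 lower of all 490 miRNA. After adjustment edgeR and limma-voom called 0 of them and DESeq2 called 3, all higher in FD (miR-223-3p, miR-125b-3p and miR-223-5p). Their summed level did not pass the test, with 3001742 ± 168370 normalized counts in Control and 2956943 ± 278097 in FD (two-sided exact permutation p = 0.791, adjusted p = 0.988 over the sums of 10 lists), led by the most abundant miRNA of all, miR-148a-3p (log2 fold change -0.31, SE 0.19, adjusted p = 0.44 by edgeR). The smallest p were those of miR-223-3p, abundant in myeloid cells (245 ± 109 normalized counts in Control, 552 ± 236 in FD, log2 fold change 1.15, SE 0.34, adjusted p = 0.195 by edgeR), of miR-223-5p (log2 fold change 0.996, SE 0.30) and of miR-125b-3p (0.36, SE 0.13).

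Other miRNA that lie in protein-coding genes were on both sides of 0. Of 78 arms tested from 55 names, 48 were above 0 and 30 below (median 0.10). At an unadjusted p under 0.05, 5 were higher and 4 lower, while 15.7% of all 490 miRNA passed at this p in either direction. After adjustment edgeR and limma-voom called 0 of them and DESeq2 called 2, miR-204-5p and miR-126-3p, both higher in FD. The summed level was 1230472 ± 129290 normalized counts in Control and 1330911 ± 53952 in FD (two-sided exact permutation p = 0.143, adjusted p = 0.286). Their smallest p were those of miR-204-5p, hosted by TRPM3 (541 ± 108 normalized counts in Control, 1113 ± 290 in FD, log2 fold change 1.03, SE 0.21, adjusted p = 0.152 by edgeR, with all 6 FD goats above every Control goat), of miR-126-3p from the endothelial gene EGFL7 (0.37, SE 0.11) and of miR-188-5p (-0.55, SE 0.18).

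The miR-15/16 family was read because the seed of its 5p arms overlaps that of miR-103/miR-107 by a shift of 1 base. Of its 12 tested arms, 6 carried this shifted seed in the deposited sequences, and the other 6 were 3p arms and miR-497-5p, with other bases at these positions. The 6 with the shifted seed were all above 0 (median 0.41), as were the other 6 (median 0.41), with 2 of the former higher at an unadjusted p under 0.05 and 0 of 12 called by edgeR, limma-voom or DESeq2. The 16 arms listed summed to 35259 ± 5707 normalized counts in Control and 46291 ± 7927 in FD (two-sided exact permutation p = 0.0381, adjusted p = 0.127). The lead members were miR-16a-5p (23977 ± 4028 in Control, 31688 ± 5035 in FD, log2 fold change 0.39, SE 0.15, adjusted p = 0.269 by edgeR), miR-16b-5p (0.39, SE 0.17) and miR-15b-5p (0.44, SE 0.21). The difference between these lists and the members was not tested.

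Markers of the cell types of the gland were read beside these values. The tissue label fits the miRNA found, since the epithelial miR-141 and miR-200b had mean normalized counts of 123668 and 46208, while miR-122, which marks liver, had 3 counts in all. The 10 tested epithelial miRNA had a median log2 fold change of -0.20, close to that of the members, with 8 of 10 below 0. Of these, 2 had an unadjusted p under 0.05, miR-200b (-0.34, SE 0.15) and miR-429 (-0.34, SE 0.15), followed by miR-200a-5p (-0.37, SE 0.19). The 2 epithelial miRNA above 0 were the arms of miR-205, miR-205-5p (0.41, SE 0.31) and miR-205-3p (0.20, SE 0.31). Their summed level, led by miR-141, was 231599 ± 10133 in Control and 212725 ± 25474 in FD (two-sided exact permutation p = 0.229, adjusted p = 0.381 over the sums of 10 lists) and was lowest in L08 (173950) and L05 (194110).

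Most endothelial, leukocyte and erythroid markers tested had a log2 fold change above 0. The endothelial miR-126 arms, led by miR-126-5p, summed to 133853 ± 12350 in Control and 168383 ± 23642 in FD (two-sided exact permutation p = 0.0381, adjusted p = 0.127), and the erythroid miRNA, led by miR-451-5p, to 5075 ± 1034 and 7004 ± 1018 (exact p = 0.019, adjusted p = 0.127). Neither sum passed after adjustment. The 5 tested leukocyte miRNA, led by miR-155-5p, had a median log2 fold change of 0.87, with 4 higher at an unadjusted p under 0.05 and a sum of 12444 ± 2469 in Control and 16861 ± 4764 in FD (exact p = 0.143, adjusted p = 0.286). The lead marker itself went the other way, with a log2 fold change of -0.12 for miR-155-5p (SE 0.21, adjusted p = 0.781 by edgeR). The leukocyte sum was highest in L08 (23632) and L05 (20565), the libraries in which miR-103-3p, miR-107-3p, miR-378-3p and miR-378d were lowest.

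The 8 stromal miRNA, led by miR-143-3p, had a median of 0.28 with 0 at an unadjusted p under 0.05 (sums 756168 ± 115212 and 823815 ± 192730, exact p = 0.562, adjusted p = 0.803). The 4 tested muscle miRNA, with miR-133b taken once because 2 species names hold the same counts, were led by miR-133a-3p with 8677 counts in all libraries. They had a median of 0.07 (sums 970 ± 251 and 993 ± 342, exact p = 0.914, adjusted p = 1.0), while miR-499-5p had 944 counts and miR-206 and miR-208b 1 count each in all libraries. The part that the cell makeup of each gland had in the levels of the members was not tested.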

How the data were processed

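Small RNA were sequenced from 10 glands, 1 library per goat. Per the labels and the study's methods, the authors removed adapters with Cutadapt, mapped reads to CHIR_1.0 and used the quantifier of miRDeep2 on known and predicted precursors. CASAVA 1.8.2 is named in the submitters' processing notes. The deposited counts are reads per mature miRNA, not normalized. The deposited miRDeep2 score and reads of predicted precursors were computed by the authors over all libraries together. The normalized columns deposited beside the counts were not used.

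The tables held 539 known and 1265 predicted miRNA. Normalized counts are counts divided by DESeq2 size factors over all miRNA. Those with a highest normalized count above 28 (490) were tested with edgeR 4.0.16 (TMM, glmQLFit, glmQLFTest, two-sided, no covariate), Benjamini-Hochberg threshold 0.1. Standard errors are the log2 fold change divided by the square root of F. Ratios had 0.5 added to both counts for the test only. Exact permutation tests ran over 210 assignments and correlations over 100000 permutations. A planned test of each family's summed share was not run, and the shares are given as values.

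The members, the lists (lipid, other protein-coding hosts, miR-15/16, epithelial, endothelial, stromal, leukocyte, erythroid, muscle and liver) and the tests were chosen with earlier results of these data known. Of the names in these lists, miR-142, miR-486 and miR-208a were not found among the miRNA listed. Each name took both arms, and some names are in several lists, such as miR-223 among lipid and leukocyte miRNA. Named were the members, their seed partners and close relatives, the 3 most alike of 5 members, the 5 most abundant and the 3 smallest p of each list. The close relatives of miR-378-3p were chosen after their sequences and counts were seen. Alternatives were DESeq2 1.42.0, limma 3.58.1, other scalings and filters, seed sums and each library left out. Scripts were tested on simulated data. R 4.3.3 and Python 3.11.15 (numpy 2.4.6, scipy 1.17.1, pandas 2.3.3, matplotlib 3.10.9) were used.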

Additional observations from a re-analysis of the deposited data

Results flagged for a closer look

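Of 32 groups of 6 or 4 libraries checked for a value far from the rest of its group, 3 held one, and chance alone gives about 1 in 20 groups. The FD library L08 had 59.8 normalized counts of miR-33a-5p, below all other FD libraries, of which the lowest held 96.7. In L09 there were 189.9 counts of miR-378-3p per count of miR-378-5p, the highest ratio of the FD libraries, although 2 Control libraries had 184 and 176. In L07 the count of miR-378-3p was 0.656 of that of miR-103-3p, while the other FD libraries ranged from 0.823 to 0.870.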

How the results depend on the processing

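No paired analysis was possible because the labels give no replicate numbers that tie Control goats to FD goats. The number of miRNA called was 0 by edgeR and limma-voom, but 24 by DESeq2 (10 higher, 14 lower), 5 without a filter, 1 with known miRNA alone and from 0 to 1 when each library was left out (1 without L02). No member was called in any of these fits, and the cause of the other counts was not tested. Without L10 the unadjusted p fell under 0.05 for miR-378-3p, miR-378d and miR-33b-5p, without L02 for miR-378-3p and miR-378d, and without L09 for miR-378-3p. The log2 fold change of miR-33a-3p turned to 0.018 with library totals and 0.0015 without a filter. Leaving out each library, it ranged from -0.14 (without L03) to 0.027 (without L05), that of miR-378-5p from -0.21 (without L04) to 0.19 (without L01), and that of miR-107-3p from -0.19 (without L10) to 0.027 (without L06), while the other 5 members stayed below 0, miR-103-3p between -0.24 (without L02) and -0.05 (without L05), miR-33b-5p between -0.62 (without L10) and -0.21 (without L01), miR-33a-5p between -0.40 (without L10) and -0.21 (without L06), miR-378-3p between -0.47 (without L10) and -0.22 (without L01), and miR-378d between -0.51 (without L10) and -0.25 (without L01). The difference in percent of counts ranged from -0.133 (without L10) to -0.0198 (without L05) for the family of miR-103 and miR-107, from -0.244 (without L10) to -0.0795 (without L01) for that of miR-378 and from -0.00172 (without L10) to -0.000573 (without L01) for that of miR-33. The log2 ratio of miR-33a-5p to miR-33b-5p, FD minus Control, ranged from -0.11 (without L01) to 0.21 (without L10). That of miR-103-3p to miR-107-3p ranged from -0.14 (without L02) to -0.055 (without L10), of miR-378-3p to miR-103-3p from -0.24 (without L10) to -0.064 (without L01), of miR-378-3p to miR-378-5p from -0.44 (without L09) to -0.18 (without L04) and of miR-33a-5p to miR-33a-3p from -0.37 (without L10) to -0.14 (without L03). None of these differences passed the test. The correlation of miR-33a-5p and miR-33a-3p ranged from -0.469 (without L08) to 0.226 (without L03). Leaving out the 2 libraries most distant from the median made the latter -0.463, and the correlations of miR-103-3p with miR-107-3p (0.770), of miR-103-3p with miR-378-3p (0.762) and of miR-33b-5p with miR-378-3p (0.765) no longer passed the test. With the 10 most abundant miRNA left out of the total, which raises every share by construction, the FD minus Control difference in percent was -0.00454 for miR-33, -0.422 for miR-103/miR-107 and -0.664 for miR-378. The 3 most alike miRNA of each of 5 members filled 15 places, with chr21_28588-5p and miR-136-3p named for more than 1 member. Of these 15 places, 12 kept the same name when deviations from the diet means were used. The other 336 values kept their direction and, where tested, their side of the threshold. Depth limits miR-33b-3p, miR-103-5p and miR-107-5p, which had at most 11 counts per library.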
